A study of Rattus norvegicus with 6 samples.

Results

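The circadian clock genes examined here were 10 rows of the rat read count table, of 30562 rows in all, found by gene symbol: Clock, Per1, Per2, Per3, Cry1, Cry2, Nr1d1, Nr1d2, Dbp and Tef. The list of symbols was chosen with earlier results of these data known. Each symbol was found in a single row, and all 10 genes had enough reads to enter the test of age. The bulk RNA-seq covered 6 mammary tumors of female F344 rats, an inbred strain, 3 of them grown in older hosts, numbered 102, 107 and 116, and 3 in younger hosts, numbered 157, 158 and 167. All rats were given a subcutaneous 50 mg pellet of medroxyprogesterone acetate (MPA), a progestin released over 90 days, and 1 oral dose of 65 mg per kg of the carcinogen DMBA. Older rats were treated at 21 to 23 months and younger rats at 4 months of age, so neither group was untreated. Whether MPA was still being released when each tumor was taken was not given in the sources used here. The study describes its older rats as past estropause, the end of estrous cycling. The question put to these genes was whether their levels differed with the age of the host, and whether genes that a running clock places in opposite phases lay opposite to each other across the tumors.

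The molecular clock is a feedback loop of transcription that keeps daily time in nearly every cell. CLOCK or its relative NPAS2, paired with BMAL1, binds E-box sequences and turns on the Per, Cry and Nr1d genes as well as Dbp and Tef. PER and CRY proteins then return to the nucleus and repress CLOCK and BMAL1, and REV-ERB alpha and beta, encoded by Nr1d1 and Nr1d2, repress Bmal1 through nuclear receptor elements. DBP and TEF activate output genes through D-boxes, where NFIL3 competes with them. In rhythmic tissues Bmal1 and Npas2 therefore peak about when Nr1d1 and Dbp are lowest, while Clock itself varies little in many tissues. Rats were kept on cycles of 12 h light and 12 h dark. The clock time at which each tumor was taken was not given in the sources used here, and each tumor is a single library at a single time, so that a phase of the clock and the age of the host cannot be told apart.

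Promoter sequences are shown for genes on which the comparisons turn, because the same short elements are read by the proteins that these genes encode. RefSeq windows of the 250 bases before a transcription start (assembly GRCr8, not the build used for counting) were found for 9 of the 10 genes, in 11 windows, and for Bmal1. They were searched on both strands for the E-box CACGTG, the related CACGTT, the D-boxes TTATGTAA and TTACGTAA, and the nuclear receptor element AGGTCA, and matches are in capitals. The 2 Nr1d1 windows, first the downstream start (chr10:84229455-84229704, minus strand) and then the upstream start (chr10:84231813-84232062, minus strand), held CACGTG and the reverse complement of CACGTT respectively. The windows of Tef (chr7:115206577-115206826, plus strand), Per2 (chr9:99496994-99497243, minus strand) and Bmal1 (chr1:176766078-176766327, plus strand) follow.
Nr1d1 downstream start: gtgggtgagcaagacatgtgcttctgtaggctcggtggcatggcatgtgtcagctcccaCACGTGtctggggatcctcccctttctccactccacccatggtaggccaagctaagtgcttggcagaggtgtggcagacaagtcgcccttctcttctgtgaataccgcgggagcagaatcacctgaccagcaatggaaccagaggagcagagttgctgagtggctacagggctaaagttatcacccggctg
Nr1d1 upstream start: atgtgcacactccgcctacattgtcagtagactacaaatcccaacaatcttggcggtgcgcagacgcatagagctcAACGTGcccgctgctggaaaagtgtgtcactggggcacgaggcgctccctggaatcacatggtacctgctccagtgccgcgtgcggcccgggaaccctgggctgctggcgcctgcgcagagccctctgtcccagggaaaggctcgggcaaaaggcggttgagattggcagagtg
Tef: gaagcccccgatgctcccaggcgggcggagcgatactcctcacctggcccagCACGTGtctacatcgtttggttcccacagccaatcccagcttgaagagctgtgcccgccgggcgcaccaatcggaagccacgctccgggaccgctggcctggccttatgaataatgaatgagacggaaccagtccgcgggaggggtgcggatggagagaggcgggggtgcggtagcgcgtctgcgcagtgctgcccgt
Per2: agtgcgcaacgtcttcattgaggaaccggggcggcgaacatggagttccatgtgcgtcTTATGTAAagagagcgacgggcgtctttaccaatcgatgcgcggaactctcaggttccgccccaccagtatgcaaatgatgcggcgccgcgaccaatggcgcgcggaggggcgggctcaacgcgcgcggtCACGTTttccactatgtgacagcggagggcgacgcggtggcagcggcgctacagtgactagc
Bmal1: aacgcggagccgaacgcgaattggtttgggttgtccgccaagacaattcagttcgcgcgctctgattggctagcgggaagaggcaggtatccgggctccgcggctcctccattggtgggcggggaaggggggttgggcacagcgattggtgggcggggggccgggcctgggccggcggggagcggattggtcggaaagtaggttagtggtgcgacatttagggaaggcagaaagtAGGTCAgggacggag

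Per2 held both a CACGTT, beginning 62 bases before the start, and a D-box, beginning 192 bases before it. Tef held CACGTG, beginning 198 bases before a start that lies inside the gene. Bmal1 held AGGTCA, beginning 15 bases before the start. Cry2 also held the reverse complement of CACGTT, and Nr1d2 held AGGTCA. No match to these letters lay in the windows of Per1, Per3, Clock or Dbp, which says nothing of elements farther away or in introns. The only windows of Per1, Per3 and Tef lay inside the RefSeq genes, so the bases before their first starts were not searched. The Per1 window began at chr10:54304126 and the gene at 54299002, and the Tef gene began at chr7:115197180. Among all 33469 windows of the same length, 5.59% held CACGTG, 4.07% CACGTT, 0.83% TTATGTAA, 0.11% TTACGTAA and 14.06% AGGTCA. A match is a description of sequence, and binding was not measured.

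Libraries held 3508571 to 6525830 counts per tumor, and the 10 genes had between 32 and 1635 counts in a tumor, above the floor of 3 counts (0.518 to 0.995 CPM) in each of the 6. CPM, edgeR's unit for a count relative to the library total, was computed on totals corrected by TMM scaling, and it compares 1 gene between tumors and not genes with each other. The luminal epithelial genes Epcam, Krt8, Krt18, Cdh1, Cldn3 and Cldn4, the 6 of 7 listed ones found in the table, were detected in every tumor, with a summed level of 1347 to 1442 CPM in older and 1757 to 1964 CPM in younger tumors. Singly, 3 of the 6 had all older below all younger tumors, as did 5.58% of all genes tested, and Krt18, Cdh1 and Cldn3 overlapped. Tumor 102 stood apart. It was the shallowest library, had the highest level of all 6 tumors for 9 of the 10 clock genes, and was highest for 25.97% and lowest for 27.23% of all 14060 genes tested, so the age comparison of the 10 genes and their correlations are given with and without it.

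Clock, the DNA-binding partner of BMAL1, was the steadiest of the 10 genes. Its level was 252 CPM in tumor 102, 161 CPM in tumor 107 and 149 CPM in tumor 116, and 144, 189 and 177 CPM in the younger tumors 157, 158 and 167. The highest level was 1.75 times the lowest, and the age groups overlapped. The SD of log2 CPM over the 6 tumors was 0.29, larger than or equal to that of only 23.9% of the genes tested. Older tumors averaged 187 ± 56.2 CPM and younger tumors 170.0 ± 23.4 CPM (SD, n = 3 each), a log2 ratio of older to younger (its log2 fold change) of 0.14 ± 0.28 (SE, edgeR adjusted p = 0.945), and of -0.14 ± 0.25 (SE) without tumor 102.

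Per1, a light- and hormone-inducible repressor of the loop, had the widest range. It was at 542 CPM in tumor 102, against 96.0 and 81.1 CPM in the older tumors 107 and 116. In younger tumors it was at 52.4, 109 and 54.0 CPM (tumors 157, 158 and 167). Tumor 102 thus lay 4.95-fold above the next highest tumor, while the other 5 spanned 2.09-fold. The mean was 239.8 ± 262 CPM in older and 71.9 ± 32.5 CPM in younger tumors (SD, n = 3 each), a log2 ratio of 1.73 ± 0.75 (SE, edgeR adjusted p = 0.591), and the SD in the older group exceeded its mean. Without tumor 102 the log2 fold change was 0.29 ± 0.39 (SE, edgeR unadjusted p = 0.481).

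Per2, the closely related repressor, had the same high tumor. It was at 195 CPM in tumor 102, at 36.8 and 26.5 CPM in tumors 107 and 116, and at 26.1, 23.5 and 41.1 CPM in the younger tumors 157, 158 and 167. Outside tumor 102 the older tumors lay within the range of the younger ones. The log2 fold change was 1.51 ± 0.73 (SE, edgeR adjusted p = 0.659) and 0.07 ± 0.34 (SE) without tumor 102. Per3, which is less needed for rhythm than its relatives, was at 242 CPM in tumor 102, at 58.9 and 67.5 CPM in tumors 107 and 116, and at 70.3, 100.3 and 83.1 CPM in tumors 157, 158 and 167. Without tumor 102 both older tumors were below all 3 younger ones, and the log2 fold change went from 0.54 ± 0.54 (SE, edgeR adjusted p = 0.881) to -0.42 ± 0.26 (SE, edgeR adjusted p = 0.932).

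Cry1, a strong repressor of CLOCK and BMAL1 and one of the last to be transcribed in the daily cycle, had the lowest counts of the 10 genes in each tumor but 107, with 32 to 85 counts. It was at 21.2 CPM in tumor 102, 18.8 CPM in tumor 107 and 8.37 CPM in tumor 116, against 5.53, 9.55 and 8.12 CPM in tumors 157, 158 and 167. Here 2 older tumors, not only tumor 102, were above all younger ones, and tumor 116 lay inside the younger range. The exact Poisson interval (95%, counting error only) was 15.0 to 23.2 CPM for tumor 107 and 7.17 to 12.5 CPM for tumor 158, the highest younger tumor. The log2 fold change was 1.05 ± 0.45 (SE, edgeR adjusted p = 0.581) and stayed above 0 with each tumor left out in turn, between 0.80 and 1.36. Cry2, its paralog, was at 42.1, 16.3 and 15.0 CPM in tumors 102, 107 and 116 and at 18.0, 21.8 and 23.6 CPM in tumors 157, 158 and 167. The Cry2 log2 fold change was 0.20 ± 0.44 (SE, edgeR adjusted p = 0.949) with all tumors and -0.43 ± 0.29 (SE) without tumor 102.

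Nr1d1, the repressor of Bmal1 whose protein is the receptor for heme, was high in 1 tumor of each age group. It was at 166 CPM in the older tumor 102 and at 162 CPM in the younger tumor 158. The older tumors 107 and 116 were at 37.1 and 29.6 CPM, and the younger tumors 157 and 167 at 71.0 and 40.3 CPM. The means of 77.6 ± 76.8 CPM in older and 91.2 ± 63.5 CPM in younger tumors (SD, n = 3 each) differed by less than the spread in either group (log2 ratio of older to younger -0.24 ± 0.75 SE, edgeR adjusted p = 0.967). Without tumor 102 the older tumors were below all younger ones (log2 ratio of older to younger -1.47 ± 0.60 SE, edgeR adjusted p = 0.677), and without tumor 158 the value was 0.47. In RefSeq the Nr1d1 gene overlaps Thra, a thyroid hormone receptor gene, and the strand setting of the counting was not given, so reads from the shared stretch cannot be told apart. Thra ranged from 36.3 to 83.9 CPM and was also highest in tumor 102. Per2, Cry1, Cry2 and Clock overlap other RefSeq genes as well, whose levels were not used here.

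Nr1d2, the second REV-ERB gene, moved far less than Nr1d1. It was at 162, 66.6 and 102 CPM in tumors 102, 107 and 116 and at 90.4, 115 and 106 CPM in tumors 157, 158 and 167. The age groups overlapped, and the log2 fold change was 0.09 ± 0.34 (SE, edgeR adjusted p = 0.976), and -0.30 ± 0.28 (SE) without tumor 102. The highest level was 2.43 times the lowest, against 5.62 times for Nr1d1.

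Dbp, an output transcription factor whose daily swing is among the largest in rodent tissues, followed the order of Nr1d1 except at the top. It was at 63.7 CPM in tumor 102 and 72.7 CPM in tumor 158, the only one of the 10 genes not highest in tumor 102. The other older tumors were at 17.0 and 16.7 CPM (tumors 107 and 116), and the other younger tumors at 34.7 and 31.5 CPM (tumors 157 and 167). The log2 fold change was -0.53 ± 0.60 (SE, edgeR adjusted p = 0.903), and -1.47 ± 0.45 without tumor 102 (SE, edgeR unadjusted p = 0.0145, adjusted p = 0.491), with both remaining older tumors below all younger ones. Tef, a second factor of the same family, was at 66.3, 21.2 and 25.1 CPM in tumors 102, 107 and 116 and at 27.1, 39.3 and 24.6 CPM in tumors 157, 158 and 167. Its log2 fold change was 0.30 ± 0.47 (SE, edgeR adjusted p = 0.935), smaller than the spread between tumors, and -0.40 ± 0.32 (SE) without tumor 102.

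**Figure D1:**
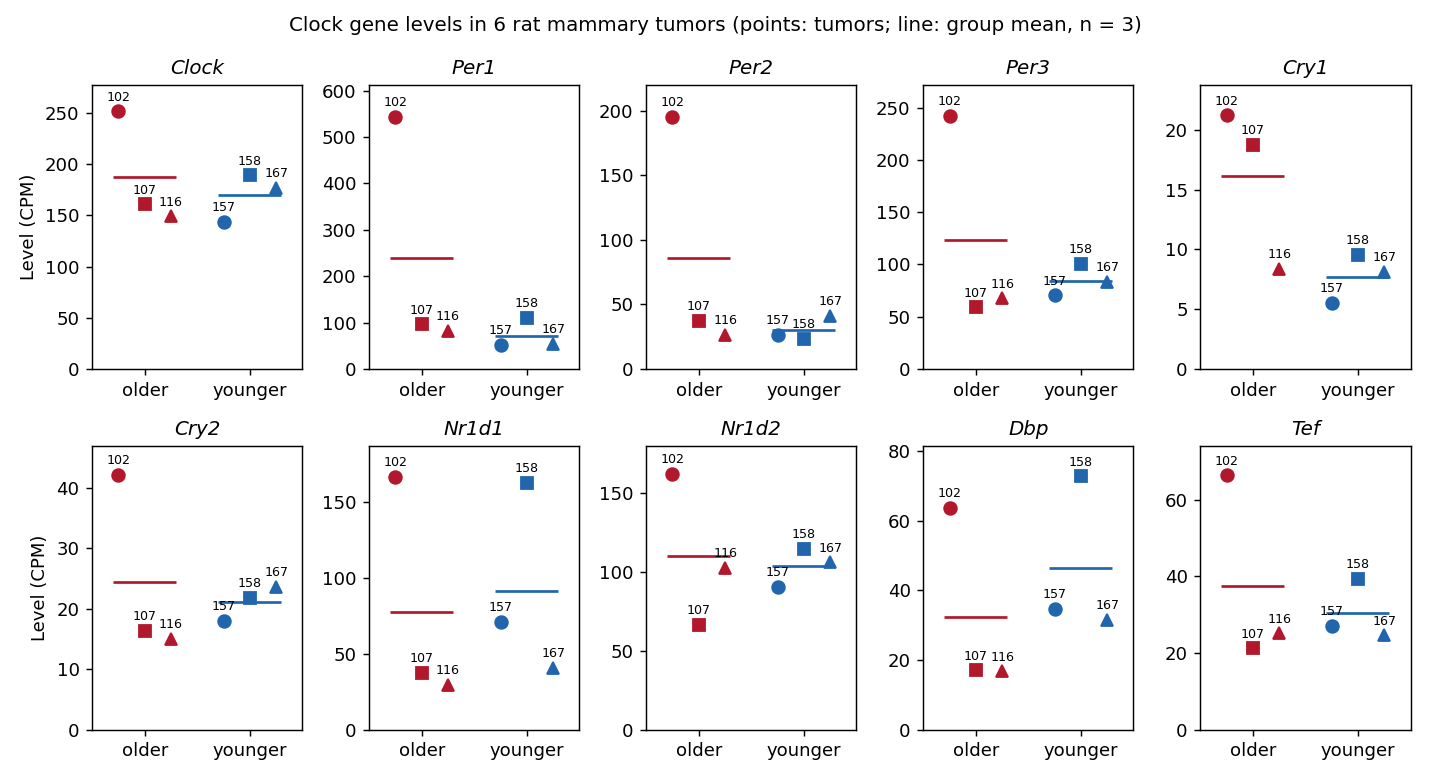
Level of each clock gene in CPM (y axis from 0, separate scale for each gene) in older (red) and younger (blue) tumors, with each point a tumor labelled by its number and each line the mean of 3. Tumor 102 is the highest point in 9 of the 10 panels, and in the Nr1d1 and Dbp panels the younger tumor 158 stands beside it.

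With all tumors, 0 of the 10 genes differed between age groups at an adjusted p under 0.05 in edgeR's quasi-likelihood test, where 0% of the 14060 genes tested did. At an unadjusted p under 0.05 in edgeR there was 1 of the 10, Cry1 (unadjusted p = 0.0486), against 8.56% of all genes. DESeq2 called 0 of the 10 genes and 2.46% of all genes, and its smallest adjusted p among the 10 was 0.265, for Per1. Counting signs without regard to the test, 8 of the 10 genes were higher and 2 lower in older tumors, where 49.6% of all genes were higher. The median log2 fold change was 0.25 over the 10 genes and -0.00326 over all genes. No age group lay wholly above or below the other for any of the 10 genes, while 12.2% of all genes showed such a gap, 6.57% with older tumors above and 5.58% with older tumors below.

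The signs of 5 of the 10 genes (Per3, Cry2, Clock, Nr1d2 and Tef) changed without tumor 102. Without it 3 of the 10 genes were higher and 7 lower in older tumors, with a median log2 fold change of -0.35 against -0.03 over all genes. Older tumors 107 and 116 then lay below all 3 younger tumors for Per3, Cry2, Nr1d1 and Dbp, 4 of the 10 genes, and above them for 0, where 8.82% and 9.75% of all genes did so. Nr1d1 and Dbp were the 2 genes with an unadjusted p under 0.05 in that fit, against 7.19% of the genes in it, and 0 of the 10 passed with adjustment, as did 0% of all genes. Tumor 102 was singled out after its values had been seen, and its removal leaves 2 older tumors.

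**Figure D2:**
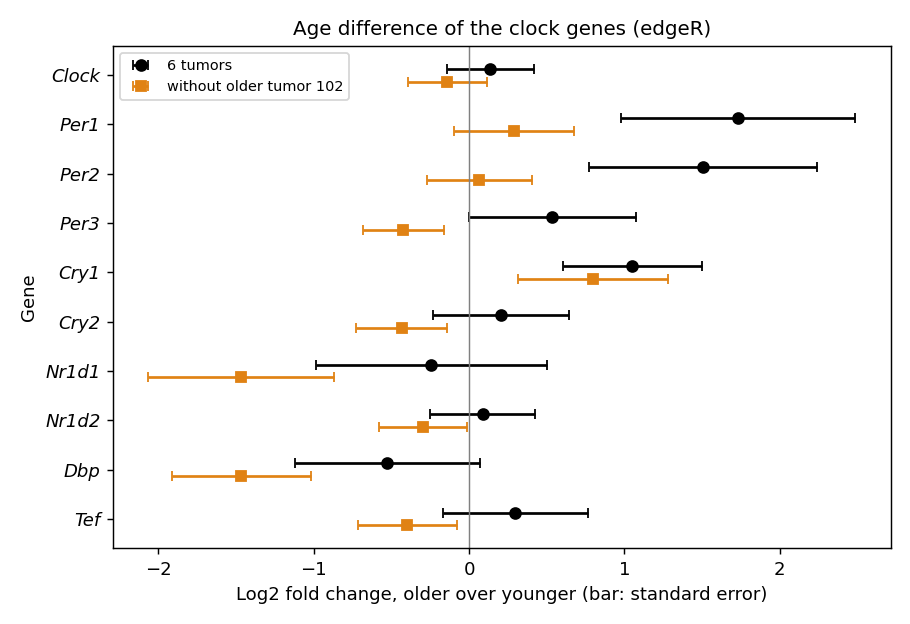
Log2 fold change of older over younger tumors (x axis) for each clock gene (y axis) with its standard error, from all 6 tumors (black circles) and without older tumor 102 (orange squares). Per3, Cry2, Clock, Nr1d2 and Tef cross 0 when tumor 102 is left out, and Nr1d1 and Dbp move to -1.47.

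In tumor 102 the rise over the other tumors was uneven between the 10 genes. Its level divided by the median of the other 5 tumors was 7.37 for Per2 and 6.68 for Per1. It was 4.12 for Nr1d1, 3.45 for Per3, 2.64 for Tef and 2.54 for Cry1, and 2.34 for Cry2 and 2.02 for Dbp. It was 1.58 for Nr1d2 and 1.57 for Clock. The Per1 and Per2 values were reached or passed by 1.2% and 0.932% of the genes tested, those of Nr1d2 and Clock by 20.9% and 21.6%. These are values of 1 library, with no replicate of that tumor.

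Other genes were high in the same library. Of 8 listed genes that respond to glucocorticoid or progestin hormones or bind them, 7 were highest in tumor 102, with a summed level of 1839 CPM against 621 to 1179 CPM in the other tumors. The exception was Pgr, the progesterone receptor gene, at 45.1 CPM in tumor 102 and highest in tumor 107 at 372 CPM. The age groups overlapped for 7 of the 8 genes, where 12.2% of all genes tested had groups that did not overlap. The other one, Fkbp5, a chaperone of steroid receptors picked after its values were seen, was at 180 CPM in tumor 102, 27.6 and 52.9 CPM in tumors 107 and 116, and 6.21 to 14.9 CPM in younger tumors (log2 ratio of older to younger 2.96 ± 0.72 SE, edgeR adjusted p = 0.311). Older tumors were above all younger ones for this gene, as for 6.57% of all genes tested. DESeq2, which called 2.46% of all genes, called this gene (adjusted p = 0.00202), unlike edgeR. Without tumor 102 its log2 fold change was 1.86 (edgeR adjusted p = 0.385). All 7 immediate early genes found in the table, of 8 listed, were highest in tumor 102 as well, with a sum of 2566 CPM against 590.1 to 1038 CPM.

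The cell composition of tumor 102 also differed by its markers. Adipocyte genes summed to 169.8 CPM in tumor 102 and to 5.97 to 32.6 CPM elsewhere, with 4 of 5 highest there and only Lep at 0 in a tumor. Most of the sum in tumor 102 was Fabp4, at 129.7 CPM. The highest sum elsewhere, in tumor 107, was mostly Lep, at 24.3 CPM. Cidec was at 8.62 CPM in tumor 102 and 7.98 CPM in tumor 116. Proliferation genes summed to 110.1 CPM in tumor 102 and to 566 to 927 CPM elsewhere, with 5 of 5 lowest there, where 27.23% of all genes tested were lowest in that tumor. Myoepithelial and basal genes summed to 79.9 CPM against 372 to 1037 CPM, with all 4 found in the table lowest there. Fibroblast genes summed to 1259 CPM against 115 to 1012 CPM, with 3 of 6 highest in tumor 102, and endothelial genes to 294 CPM against 53.7 to 221 CPM, with 3 of 5 highest there. The summed macrophage genes separated the age groups instead, at 153 to 290 CPM in older and 71.4 to 109 CPM in younger tumors, although C1qa and Cd163 of the 5 overlapped between the groups. The summed T cell genes did so at 15.6 to 83.6 CPM and 4.42 to 8.47 CPM, although Cd3d, which was at 0 in a tumor, and Cd3g of the 5 overlapped. A single gene had all older above all younger tumors in 6.57% of the genes tested. Skeletal muscle genes summed to 5.84 to 52.7 CPM, highest in tumor 107, and each of the 4 B cell genes was at 0 in at least 1 tumor. The part of these genes and cells, and of the shallow depth, in the clock gene levels was not tested, and in bulk tissue fewer cells of a type and less RNA per cell cannot be told apart.

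**Figure D3:**
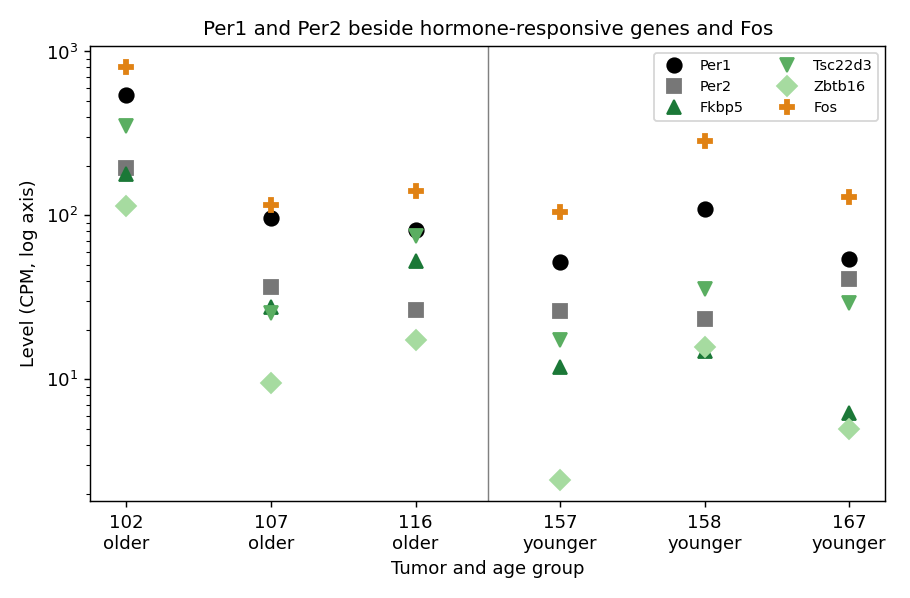
Level in CPM (log axis) of Per1 and Per2 beside the hormone-responsive genes Fkbp5, Tsc22d3 and Zbtb16 and the immediate early gene Fos in each tumor (x axis, older left and younger right of the line). The 6 genes have their highest point in tumor 102, where Per1 is at 542 CPM and Fkbp5 at 180 CPM. Fkbp5, Tsc22d3 and Zbtb16 are a choice from 8 listed genes, of which 7 were highest in tumor 102 and Pgr, not shown, was not.

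The partners and modulators of the loop were described from a list of 25 further clock genes, all found in the table, of which 21 had enough reads to be tested. In edgeR's test 0 of the 21 passed in either direction, 9 were higher and 12 lower in older tumors by sign, and the median log2 fold change was -0.04. Bmal1, the obligate partner of CLOCK, was at 28.8, 37.1 and 23.7 CPM in tumors 102, 107 and 116 and at 25.6, 23.2 and 22.0 CPM in tumors 157, 158 and 167. Tumor 102 was second highest for this gene, and the highest level, 1.69 times the lowest, was in tumor 107. Its log2 fold change was 0.34 ± 0.27 (SE, edgeR adjusted p = 0.836), and it was 0.36 without tumor 102 and 0.15 without tumor 107.

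Npas2, which can stand in for CLOCK, was highest in tumor 107 at 138 CPM and ranged from 45.3 to 98.0 CPM in the other tumors. Nfil3, the D-box repressor, was at 67.3 CPM in tumor 102 and between 1.43 and 13.4 CPM in the other 5, a pattern closer to that of Per1. Bhlhe40 and Bhlhe41, which encode the E-box repressors DEC1 and DEC2, had their highest levels in younger tumors, Bhlhe40 at 574 CPM in tumor 157 and Bhlhe41 at 537 CPM in tumor 158. Nampt, a NAD-making enzyme under clock control, was at 739 CPM in tumor 102 and 181 to 260 CPM in the others. Por, an electron donor to cytochrome P450 enzymes, was the only one of the 21 whose age groups did not overlap, against 12.2% of all genes. It was at 36.8 to 54.0 CPM in older and 61.6 to 95.4 CPM in younger tumors (log2 ratio of older to younger -0.77 ± 0.28 SE, edgeR adjusted p = 0.466), and its log2 ratio was -0.85 without tumor 102.

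**Figure D4:**
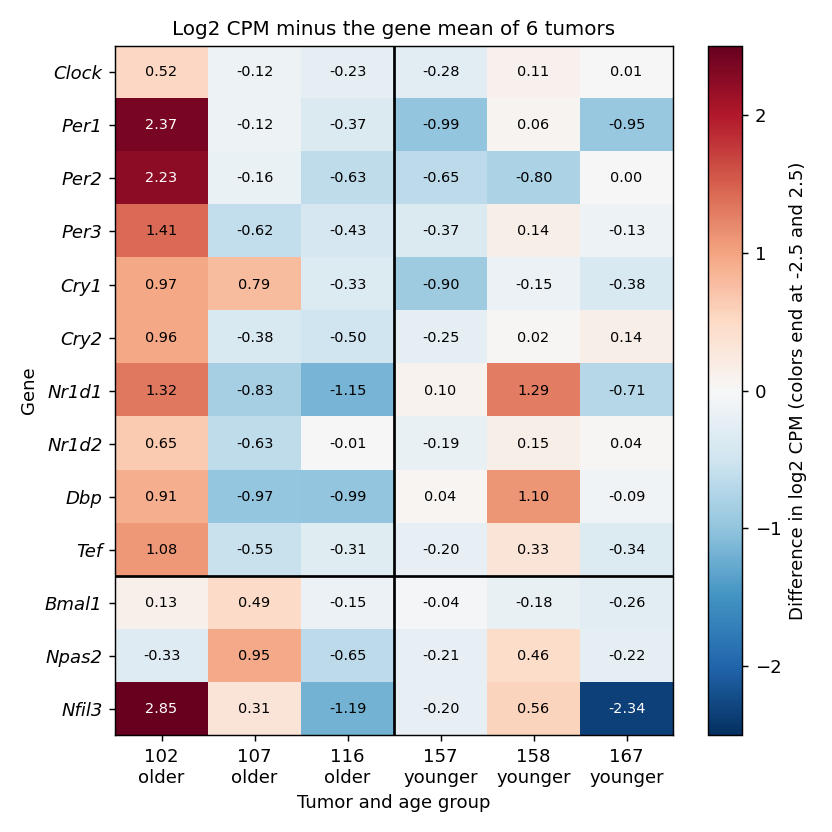
Log2 CPM of each gene minus its mean over the 6 tumors (color and number), with genes in rows and tumors in columns, older left and younger right of the vertical line, and with the 10 clock genes above Bmal1, Npas2 and Nfil3. Tumor 102 is above the mean in all 10 clock genes, and tumor 158 is the other tumor with high Nr1d1 and Dbp.

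Opposite phases were sought as negative correlations across the tumors, in 75 pairs: the 45 pairs of the 10 genes and the 30 pairs of each with Bmal1, Npas2 and Nfil3. All 45 pairs of the 10 genes had a positive Pearson correlation of log2 CPM over the 6 tumors, from 0.08 for Cry1 and Dbp to 0.97 for Per3 and Tef, with a median of 0.77. With libraries scaled by their totals alone 42 of the 45 were positive. In two-sided exact permutation tests over the 720 orderings of the tumors, 0 of the 75 pairs passed an adjusted p of 0.05 and 16 had an unadjusted p under 0.05, all of them positive. The smallest adjusted p was 0.104. Values from 1 library share its scaling and its mix of cells, so these correlations describe 6 tumors and not 10 independent genes.

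Clock was not opposed to its targets. With Nr1d1 its correlation was 0.73 (Spearman 0.66, adjusted exact permutation p = 0.253), with Dbp 0.71 (Spearman 0.60, adjusted exact permutation p = 0.263) and with Per3 0.95 (Spearman 0.77, adjusted exact permutation p = 0.149). With Nr1d2 it was 0.79 (Spearman 0.83, adjusted exact permutation p = 0.239), and with Tef 0.89 (Spearman 0.49, adjusted exact permutation p = 0.200). Leaving out the 2 tumors farthest from the median of Clock (tumors 102 and 157) left positive values with Nr1d1, Nr1d2, Dbp and Tef, from 0.45 with Nr1d2 to 0.93 with Dbp, and the pair with Per3 was at 0.46 without the tumors farthest by Per3 (102 and 158). With libraries scaled by their totals alone the Clock values were lower, at 0.37 with Nr1d1, 0.47 with Dbp, 0.74 with Tef, 0.79 with Nr1d2 and 0.89 with Per3. Without tumor 102 alone they ranged from 0.42 with Nr1d2 to 0.77 with Per3.

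Bmal1 was positive with 4 of the 10 genes and negative with 6. The positive ones were Cry1 at 0.72, which was larger in size than any of the negative ones with TMM scaling, Per1 at 0.34, Per2 at 0.31 and Clock at 0.07. Those with Cry1, Per1 and Per2 were at 0.77, 0.35 and 0.30 without tumor 102, and changed sign, to -0.76, -0.18 and -0.64, without tumors 102 and 107. With the same 5 genes as Clock above, the correlations of Bmal1 were negative, and their size depended on the scaling. With TMM scaling they were -0.43 with Nr1d2 (Spearman -0.37, adjusted exact permutation p = 0.523), -0.32 with Dbp (Spearman -0.14, adjusted exact permutation p = 0.741) and -0.08 with Nr1d1 (Spearman 0.03, adjusted exact permutation p = 0.966). They were -0.06 with Tef (Spearman -0.03, adjusted exact permutation p = 0.966) and -0.03 with Per3 (Spearman -0.31, adjusted exact permutation p = 0.966). With libraries scaled by their totals alone they were farther below 0, at -0.81 with Dbp, -0.65 with Nr1d1, -0.65 with Nr1d2, -0.56 with Tef and -0.46 with Per3 (adjusted exact permutation p from 0.275 to 0.531). None of these negative values passed the adjusted threshold under either scaling. Each TMM value turned positive when tumor 107, where Bmal1 was highest, was left out, from 0.36 with Dbp to 0.77 with Tef. Without tumor 102 in its place, Bmal1 and Nr1d2 had a correlation of -0.97 (adjusted exact permutation p = 0.75), and 7 of the 10 Bmal1 pairs were negative. Leaving out tumors 102 and 107, the farthest from the median of Bmal1, gave -0.78 with Nr1d2 and 0.14 with Nr1d1. Npas2 reached -0.57, the lowest value of the 75, also with Nr1d2 (Spearman -0.43, adjusted exact permutation p = 0.410), and was -0.01 for that pair without its 2 farthest tumors (107 and 158). The Npas2 pairs went from 8 of 10 negative, with a median of -0.13, to 8 of 10 positive, with a median of 0.17, without tumor 102. Nfil3 was positive with all 10 genes, and with 6 of them without tumor 102, where its median correlation went from 0.69 to 0.16.

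The 10 genes did not rise and fall as a single block once tumor 102 was set aside. Of the 45 pairs, 31 were then positive and 14 changed sign, and the median correlation fell to 0.42. Per3, Nr1d1, Dbp and Tef had correlations with each other from 0.76 to 0.94 in their 6 pairs, against 0.75 to 0.97 with all tumors (adjusted exact permutation p from 0.104 to 0.208). With each age group centred on its own mean these 6 pairs had values from 0.85 to 0.98. Each pair was repeated without the 2 tumors farthest from the median of its first-named gene (102 and 158, or 116 and 158 for Dbp and Tef). The values then spread from 0.19 for Per3 and Nr1d1 to 0.91 for Dbp and Tef, with 0.55 for Nr1d1 and Tef and 0.57 for Per3 and Tef. These 4 genes were picked after the correlations were known. Per2 and Cry1 each had 6 of their 9 pairs negative without tumor 102, the lowest for Per2 being -0.72 with Tef and -0.60 with Nr1d1, and the lowest for Cry1 -0.64 with Nr1d2 and -0.37 with Dbp. Per1 and Nr1d2 had 3 negative pairs each, the other genes 2, and Clock 0. Per1 and Per2 had a correlation of 0.87 over all tumors (Spearman 0.26, adjusted exact permutation p = 0.263), -0.32 without tumor 102 and -0.69 without tumors 102 and 157, so that this relation rested on tumor 102.

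**Figure D5:**
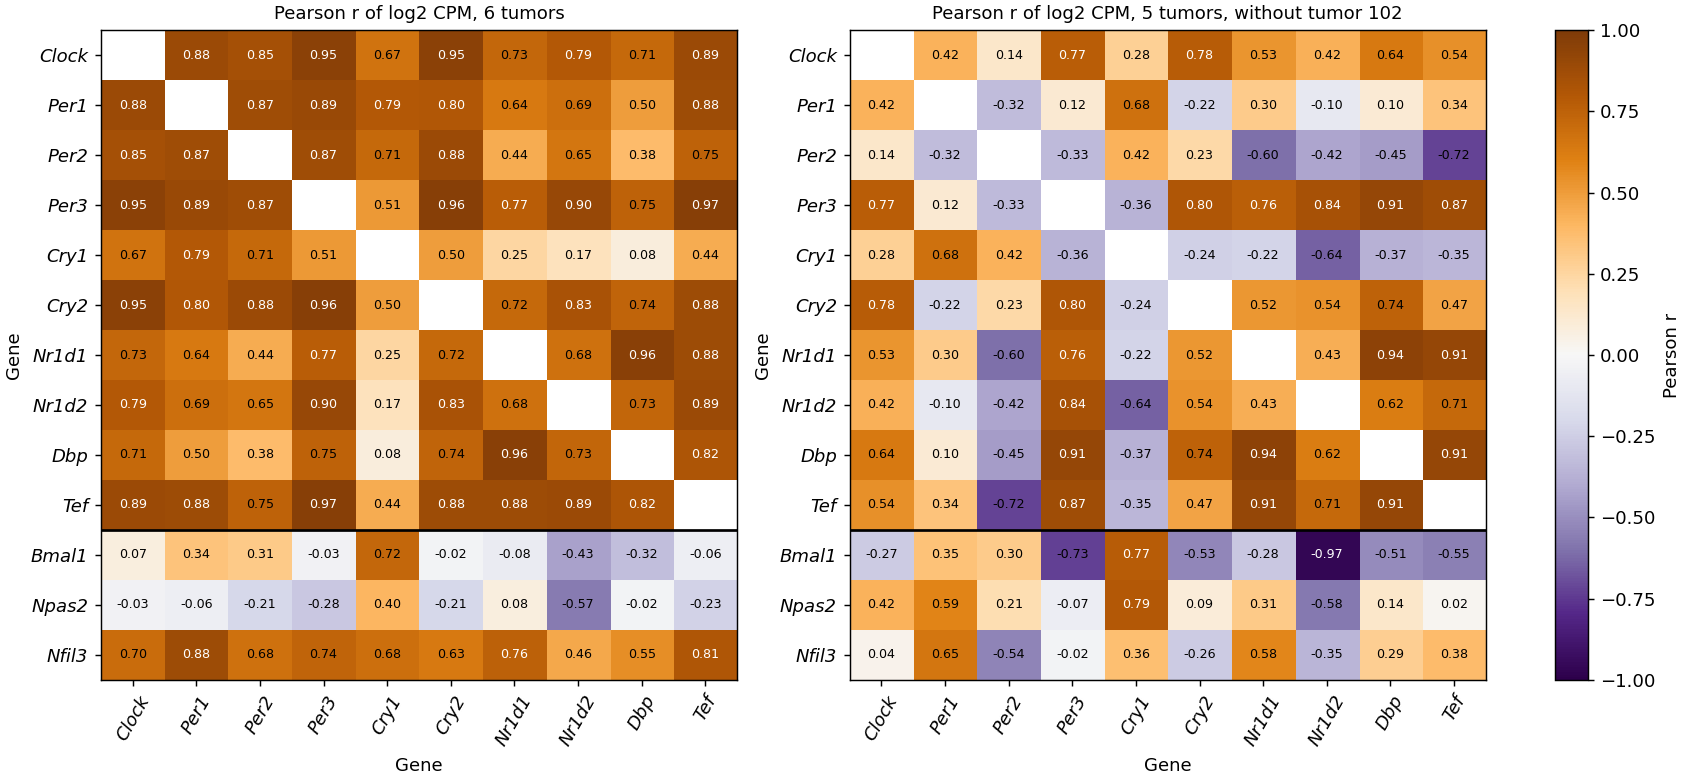
Pearson correlation of log2 CPM for pairs of clock genes, and of Bmal1, Npas2 and Nfil3 with them (rows below the line), over the 6 tumors on the left and without tumor 102 on the right. The left panel has positive values throughout its upper block, from 0.08 to 0.97, and in the right panel 14 values of that block are negative, 6 of them with Per2 and 6 others with Cry1.

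Genes outside the clock list with a pattern like that of Dbp were sought by the Pearson correlation of log2 CPM over the 6 tumors, among 13994 genes with different names, as a description with tumor 102 included. Nr1d1, at 0.96, ranked 22nd of them, Tef at 0.82 ranked 307th and Per3 at 0.75 ranked 599th. Cry2 at 0.74, Nr1d2 at 0.73 and Clock at 0.71 were within the highest 5.75% of genes, while Per1 at 0.50 ranked 2268th, Per2 at 0.38 ranked 3329th and Cry1 at 0.08 ranked 6065th. The 3 genes most like Dbp were LOC108351584 and Car5b, a mitochondrial carbonic anhydrase, both at 0.98, and Oxa1l, an insertase of the inner mitochondrial membrane, at 0.98. The 3 genes most opposite to Dbp were Adrb1, the beta-1 adrenergic receptor, at -0.99, Lrrn2 at -0.99 and Twf2, an actin-binding protein, at -0.98. Lrrn2 lay at or near the floor of 3 counts in the tumors highest for Dbp, with a log2 CPM of 0.50 in tumor 102 and 0.57 in tumor 158. Bmal1 stood at -0.32 and was passed from below by many genes with no place in the loop, being ranked 9792nd from the top.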

How the data were processed

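Total RNA of 6 fresh frozen mammary tumors was depleted of ribosomal RNA, and libraries were sequenced in pairs on a NovaSeq (the labels give polyA RNA and reads of 100 bases). The authors used Trimmomatic for trimming, STAR for alignment, Picard for marking duplicates and HTSeq 0.13.5 for counting, and they deposited raw read counts per gene, with mRatBN7.2 in the submitters' processing notes. The annotation, the strand setting and the use of marked duplicates were not given in the sources used here. Tumors were matched to columns by tumor number, and 0 columns were left unused.

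The count analysis ran in edgeR 4.0.16 under R 4.3.3 (filterByExpr, which left 14060 of 30562 rows, TMM, quasi-likelihood test without covariates, Benjamini-Hochberg adjustment over all genes tested). DESeq2 1.42.0 and limma-voom 3.58.1 were alternatives. Standard errors were derived from the F statistic, and log2 CPM used a prior count of 2. Rows without a gene name (4367, with 2.872% of counts) were kept. Correlations were computed with numpy 2.4.6 in Python 3.11.15 and adjusted over 75 pairs. The code was tested on simulated data. The depth of 3508571 to 6525830 counts limits genes near 3 counts, and intervals and floors cover counting error only. The study counts 3 older and 3 younger rats behind its sequenced tumors, so each tumor was taken as 1 rat, with 1 library each. The smallest two-sided p of exact permutations with 3 tumors a group is 0.1. Named were all 10 genes, genes of the list of further clock genes, the 3 genes most and least like Dbp, pairs of Clock and Bmal1 with Nr1d1, Nr1d2, Dbp, Tef and Per3, and any pair past the threshold (0 were). Other pairs, and Fkbp5 and Pgr, were named after their values were seen. Members and lists were chosen with earlier results of these data known, and the lists of hormone-responsive, immediate early, epithelial, basal, stromal, immune, adipocyte, muscle and proliferation genes served to describe the libraries.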

Additional observations from a re-analysis of the deposited data

How the results depend on the processing

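No paired analysis was possible because no tumor number occurs in both age groups. The number of genes called by age, 0 (1203 at an unadjusted p under 0.05), was 346 with DESeq2 (232 higher in older tumors) and 1 with every gene of at least 1 count tested, and 0 under the other settings, leaving out each tumor included. The number of the 10 clock genes called was 0 under all 13 settings, with a smallest adjusted p of 0.265 (DESeq2), as was that of the 21 further clock genes and that of correlated pairs under its own settings. Of 130 fold changes of the 10 genes under these settings 11 changed sign. Without tumor 102 these were Per3 (-0.42), Cry2 (-0.43), Clock (-0.14), Nr1d2 (-0.30) and Tef (-0.40), and Nfil3 (-0.0464) and Nampt (-0.0572) beside them. Nr1d1 was at 0.07, 0.14 and 0.47 without tumors 107, 116 and 158. Nr1d2 was at -0.0080 without tumor 157, Npas2 at -0.54 without tumor 107 and Bhlhe41 at 0.30 without tumor 158. With limma-voom Cry2 was at -0.0208, Nr1d2 at -0.0042 and Npas2 at -0.0149. Over the fits leaving out a tumor, Per1 ranged from 0.29 to 2.17, Per2 from 0.07 to 1.93, Per3 from -0.42 to 0.86, Cry1 from 0.80 to 1.36, Cry2 from -0.43 to 0.46, Clock from -0.14 to 0.27, Nr1d1 from -1.47 to 0.47, Nr1d2 from -0.30 to 0.34, Dbp from -1.47 to -0.04, Tef from -0.40 to 0.57, Bmal1 from 0.15 to 0.48, Npas2 from -0.54 to 0.40, Nfil3 from -0.0464 to 2.52, Bhlhe41 from -1.58 to 0.30 and Nampt from -0.0572 to 1.13. Bmal1 correlations turned positive without tumor 107, to 0.55 with Nr1d1, 0.63 with Nr1d2, 0.36 with Dbp, 0.77 with Tef and 0.73 with Per3, and without tumor 158, to 0.14 with Nr1d1 and 0.03 with Tef. Their lowest values with a tumor left out were -0.28 with Nr1d1, -0.97 with Nr1d2, -0.56 with Dbp, -0.55 with Tef and -0.73 with Per3. With library totals they were -0.65 with Nr1d1 and with Nr1d2, -0.81 with Dbp, -0.56 with Tef and -0.46 with Per3, and the Clock correlations fell to 0.37 with Nr1d1 and 0.47 with Dbp. With Nr1d1 the Bmal1 value was 0.0286 by Spearman's rho and 0.0829 with age groups centred. The cause was not tested. Fold changes of the 10 genes rested on 32 to 1635 counts in a tumor.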
